A study of Mus musculus with 10 samples.

Results

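The 40 genes described here were chosen by name from the hypoxia response and glycolysis. They cover the hypoxia-inducible transcription factors, the hydroxylases that sense oxygen, the enzymes from glucose uptake to lactate export, and several genes known to be induced when oxygen is short. On the array, 37 of the 40 were read by at least 1 probe set that the platform annotation assigned to that gene alone. Of these, 33 lay above the filter on dim values and were tested, among 11332 genes tested in all. Egln3, Eno2, Slc16a3 and Car9 lay below the filter, and Eno1, Gpi1 and Gapdh had no probe set that met the rule.

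Lung RNA was measured in 10 adult female C57BL/6 mice, 1 animal per Affymetrix Mouse430_2 array. The arsenic group of 5 mice drank water with 50 ppm of arsenic for 12 weeks from the age of 8 weeks, and the control group of 5 drank distilled deionized water. The series names the compound as arsenate, whereas the sample protocols name arsenite, so the form of arsenic is not settled here. Each mouse has its own number in the labels, so the replicates are separate animals. In the titles, the animal number is preceded by 20 in the arsenic group and by 4 in the control group. What this prefix stands for is not given, and a cage or batch that it might mark cannot be told apart from the exposure. No genetic modification is given for either group.

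In a cell with enough oxygen, prolyl hydroxylases mark the alpha subunits of the hypoxia-inducible factors for destruction through the VHL ubiquitin ligase. When oxygen falls, the subunits persist, pair with Arnt and bind a short DNA motif near genes for glucose transport, glycolysis, lactate export, vessel growth and mitochondrial turnover. HIF-1 alpha is made in nearly all cell types, and HIF-2 alpha, encoded by Epas1, is abundant in the endothelium of the lung. Because the subunits are controlled mainly as proteins, the level of their messenger RNA is not a measure of their activity.

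No member passed an adjusted p of 0.05 in limma's test across all genes, where 0.477% of genes did and 0.379% did in the higher direction. Without adjustment, 7 of the 33 tested members had a p under 0.05, all of them higher in arsenic, beside 10.6% of all genes tested that were higher at that threshold. No member was lower at it, beside 5.13% of all genes. The 7 were P4ha2, Pfkfb3, Hk2, Ndrg1, Bnip3, Higd1a and Pdk3. Of these, P4ha2, Pfkfb3 and Hk2 had an adjusted p under 0.1, a threshold that 0.741% of all genes passed in the higher direction. The difference was positive for 26 members and negative for 7, so 78.8% were positive, beside 63.2% of all genes. The median difference was 0.10 log2 units over the members and 0.06 over all genes tested. These values are from whole lung, where more or fewer cells of a type and more or less RNA per cell cannot be told apart.

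**Figure D1:**
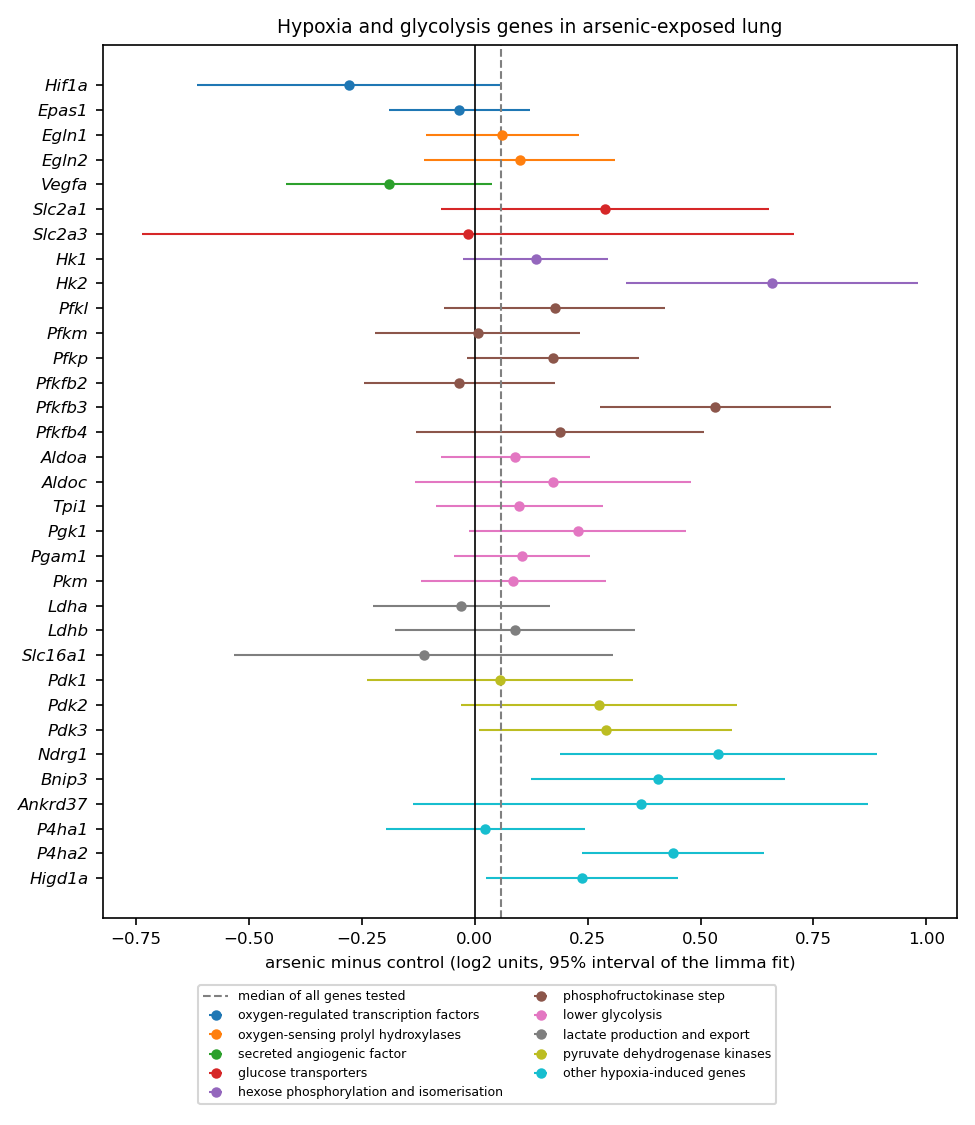
Difference between the arsenic and control means of the 33 tested genes (horizontal axis, log2 units) with the 95% interval of the limma fit, coloured by role; the dashed line is the median of all genes tested. Hk2, Ndrg1, Pfkfb3, P4ha2 and Bnip3 lie farthest to the right, between 0.41 and 0.66, and Hif1a lies farthest to the left at -0.28.

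The hypoxia-inducible factors bind the core letters ACGTG or GCGTG, and the members with the smallest p-values hold such matches before their start sites. The sequences are shown because these members carry the largest differences from control relative to their errors. They are the 250 bases upstream of the start in RefSeq (GRCm38.p6), written 5′ to 3′ along the gene. For Pfkfb3, whose starts lie inside or beside longer transcripts of the gene, 30 bases at each start are shown, around the last match. Capitals mark matches to either form on either strand, so that CACGT and CACGC are matches on the opposite strand. No promoter of Ndrg1 was analysed here.
P4ha2 (chr11:54100674-54100923, plus strand): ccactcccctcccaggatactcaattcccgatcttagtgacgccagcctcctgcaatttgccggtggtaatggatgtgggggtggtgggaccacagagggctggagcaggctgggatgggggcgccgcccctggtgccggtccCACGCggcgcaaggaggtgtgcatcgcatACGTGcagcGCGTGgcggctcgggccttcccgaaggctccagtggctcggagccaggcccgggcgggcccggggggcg
Pfkfb3 inner start (chr2:11502125-11502154, minus strand): acccttctctcCACGTGaaagggggctggg
Pfkfb3 outer start (chr2:11553972-11554001, minus strand): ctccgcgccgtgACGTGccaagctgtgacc
Hk2 (chr6:82774455-82774704, minus strand): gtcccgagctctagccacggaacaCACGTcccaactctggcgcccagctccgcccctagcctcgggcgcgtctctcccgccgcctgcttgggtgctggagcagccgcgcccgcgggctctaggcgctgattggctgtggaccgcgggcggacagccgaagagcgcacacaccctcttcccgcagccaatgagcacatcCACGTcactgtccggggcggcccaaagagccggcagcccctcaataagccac
Bnip3 (chr7:138909507-138909756, minus strand): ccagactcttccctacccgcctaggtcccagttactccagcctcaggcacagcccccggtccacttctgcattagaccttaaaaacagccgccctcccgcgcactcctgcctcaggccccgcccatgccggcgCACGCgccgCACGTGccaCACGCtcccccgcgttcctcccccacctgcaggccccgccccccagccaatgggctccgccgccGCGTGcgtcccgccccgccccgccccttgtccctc
Higd1a (chr9:121857797-121858046, minus strand): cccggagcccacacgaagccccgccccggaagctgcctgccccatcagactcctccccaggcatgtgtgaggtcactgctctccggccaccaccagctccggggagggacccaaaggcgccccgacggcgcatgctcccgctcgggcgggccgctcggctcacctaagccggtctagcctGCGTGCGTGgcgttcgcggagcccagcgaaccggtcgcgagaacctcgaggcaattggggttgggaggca
The promoter of Bnip3 holds 5 matches, of which the adjoining pair at 108 and 107 bases before the start forms CACGTG. These letters are also an E-box, which other factors bind, and the inner start of Pfkfb3 holds one too. An E-box stood in 8 of 55 member promoters (14.5%), several starts of a gene counted, and in 6.02% of all promoters of this length. The E-box share in promoters of tested genes, which are nearer to the members in GC content, was not counted. Among the members with a promoter in the table, 34 of 37 had at least 1 match. This is 91.9%, beside 41.5% of all genes with a promoter. Among tested genes the comparison is nearer, with 29 of 30 tested members (96.7%) and 61.4% of all tested genes. In these shares a gene counted if any of its starts had a match. Counted per promoter, 45 of 55 member promoters (81.8%) had a match, beside 55.1% of those of tested genes and 38.6% of all. The median GC content was 60.4% in the members' promoters, 59.6% in those of all tested genes and 52.4% in all promoters. Tpi1, Eno2 and Gpi1 were the members without a match. Members with a negative difference held matches too, with 5 before a start of Ldha, 4 before that of Slc16a1 and 3 before that of Hif1a. The matches thus do not set apart the members shown, and all members were chosen by name from this pathway. A match of 5 letters is a description of the sequence and not evidence of binding.

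The messenger RNA of the transcription factors was not higher in arsenic. Hif1a, the alpha subunit of HIF-1, read 11.18, 10.82, 11.26, 11.47 and 10.86 log2 units in controls 1 to 5 and 11.10, 10.48, 10.88, 11.02 and 10.70 in arsenic animals 1 to 5. Its mean was 11.12 ± 0.27 (SD, n = 5) in controls and 10.84 ± 0.25 (SD, n = 5) in arsenic, a difference of -0.28 with a standard error of 0.15 and an adjusted p of 0.393. The groups overlapped, although no arsenic animal reached the control mean. All 3 probe sets of Hif1a above the filter gave a negative difference, from -0.51 to -0.17. Epas1, the alpha subunit of HIF-2, read 15.02, 15.04, 15.24, 15.06 and 15.00 in controls and 15.09, 14.96, 14.99, 15.13 and 15.02 in arsenic. The difference of -0.03 had a 95% interval from -0.19 to 0.12, and a further probe set gave 0.18, so the sign of Epas1 depended on the probe set.

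The tested oxygen-sensing hydroxylases had positive differences, neither with an unadjusted p under 0.05 in the probe set that stood for the gene. Egln1, which encodes PHD2, the main hydroxylase that sets HIF-1 alpha levels in most cells, read 10.69, 10.97, 10.84, 10.74 and 10.90 in controls and 10.82, 11.02, 10.89, 10.84 and 10.89 in arsenic. Its difference was 0.06, with a 95% interval from -0.11 to 0.23. The other kept probe set of Egln1 gave 0.20, with an unadjusted p of 0.0380 in limma's test of all probe sets, so its size depended on the probe set. Egln2, which encodes PHD1, differed by 0.10 with an interval from -0.11 to 0.31. Egln3, which encodes PHD3 and is itself induced by HIF in many cells, read 2.77, 2.73, 2.68, 2.74 and 2.83 in controls and 2.75, 2.73, 2.76, 2.70 and 2.69 in arsenic. All 10 of these lie below the filter of 4.198, so no change of Egln3 can be read from them.

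Vegfa, the secreted growth factor for endothelium and a classical HIF target, differed in the direction opposite to most members. It read 13.65, 13.54, 13.74, 13.36 and 13.24 in controls and 13.33, 13.39, 13.20, 13.22 and 13.42 in arsenic. The mean was 13.51 ± 0.20 (SD, n = 5) against 13.31 ± 0.10 (SD, n = 5), a difference of -0.19 with a standard error of 0.10 and an adjusted p of 0.391. No arsenic animal exceeded the control mean, but controls 4 and 5 lay within the arsenic range. The other kept probe set of Vegfa gave -0.17, and the difference was -0.12 with the level of kidney markers as a covariate.

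Glucose enters cells through the transporters of the SLC2 family. Slc2a1, which encodes the widely expressed transporter GLUT1, read 11.41, 10.91, 10.93, 11.10 and 11.19 in controls and 11.12, 11.74, 11.72, 11.43 and 10.98 in arsenic. Arsenic animals 2 and 3 were high, and arsenic 1 and 5 lay among the controls. The difference was 0.29 with a standard error of 0.16 and an adjusted p of 0.406, and its 3 kept probe sets gave 0.23 to 0.30. Slc2a3, which encodes GLUT3, ranged from 6.78 to 9.06 in controls and from 7.58 to 7.98 in arsenic. Its difference of -0.01 had an interval from -0.74 to 0.71, the widest of the values given for these transporters.

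Hexokinases trap glucose in the cell as glucose 6-phosphate, and Hk2 is the inducible form. Hk2 read 8.77, 8.62, 8.56, 8.95 and 8.97 in controls and 9.16, 9.76, 9.44, 9.10 and 9.69 in arsenic. Every arsenic animal lay above every control. Groups that did not overlap in the higher direction made up 2.82% of all genes tested and occurred in 2 members, Hk2 and P4ha2. In the lower direction they made up 0.803% of all genes and occurred in 0 members. The Hk2 mean was 8.77 ± 0.19 (SD, n = 5) against 9.43 ± 0.30 (SD, n = 5). This is a 1.58-fold difference, 0.66 log2 units with a 95% interval from 0.34 to 0.98 and an adjusted p of 0.0991, the largest difference of any tested member. Hk1, the constitutive hexokinase, differed by 0.14 with an interval from -0.03 to 0.30.

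Phosphofructokinase is the committed step of glycolysis, and the PFKFB enzymes make and break down fructose 2,6-bisphosphate, its strongest activator. Pfkfb3, the isoform with the highest kinase activity relative to phosphatase, read 9.55, 9.73, 9.52, 9.40 and 9.41 in controls and 9.71, 9.99, 10.08, 10.15 and 10.34 in arsenic. Arsenic 1 lay just below control 2, and the other 4 arsenic animals exceeded all controls. Its mean was 9.52 ± 0.13 (SD, n = 5) against 10.06 ± 0.23 (SD, n = 5), a 1.45-fold difference, 0.53 log2 units with a standard error of 0.12 and an adjusted p of 0.0939. Without arsenic 1 the difference was 0.62 with an adjusted p of 0.0361, which is past the threshold. Over the fits that left out 1 array, the adjusted p of Pfkfb3 in limma ran from 0.0361 to 0.241. The further kept probe set of Pfkfb3 gave 0.42. Of the other members of this step, Pfkl, Pfkp and Pfkfb4 differed by 0.17 to 0.19, Pfkm by 0.01 and Pfkfb2, an isoform prominent in heart, by -0.03, or by -0.26 in its other kept probe set. None of these had an unadjusted p under 0.05.

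The enzymes of the lower pathway split the 6-carbon sugar and recover its energy. All 6 that were tested differed by a small positive amount, from 0.09 to 0.23, beside 63.2% of all genes with a positive difference. None had an unadjusted p under 0.05. Pgk1, which makes the first ATP of the pathway, read 11.16, 11.10, 11.18, 11.52 and 11.52 in controls and 11.48, 11.68, 11.64, 11.47 and 11.36 in arsenic. Controls 4 and 5 lay at the arsenic level and controls 1 to 3 below it, and the difference was 0.23 with a standard error of 0.11 and an adjusted p of 0.344. The 3 kept probe sets of Pgk1 gave 0.14 to 0.34. Pkm, which encodes the pyruvate kinases of most tissues, read 11.85, 11.84, 11.77, 11.59 and 11.81 in controls and 11.67, 12.02, 11.93, 11.69 and 11.98 in arsenic. The groups overlapped, with a difference of 0.09 and an interval from -0.12 to 0.29. Aldoa and Aldoc, the aldolases, differed by 0.09 and 0.17, Tpi1 by 0.10 and Pgam1 by 0.10. Of these, Tpi1 had kept probe sets of opposed sign.

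Gapdh was read by the array's own control probe sets, which the rule left out, and by sets shared with other genes. The 3′ control set read 13.55, 13.46, 13.39, 13.36 and 13.53 in controls and 13.40, 13.54, 13.49, 13.38 and 13.51 in arsenic. The groups overlapped almost wholly. The differences of the 3 control sets lay between -0.02 and 0.00 log2 units. Eno2, the neuronal enolase, read between 2.83 and 3.10 on all arrays, below the filter.

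Genes of lactate production and export had differences of both signs, none with an unadjusted p under 0.05. Ldha, which encodes the lactate dehydrogenase subunit of hypoxic and muscle tissue, read 12.76, 12.53, 12.61, 12.65 and 12.89 in controls and 12.53, 12.77, 12.78, 12.57 and 12.63 in arsenic. The groups overlapped, and the difference of -0.03 had an interval from -0.23 to 0.17. Ldhb, the other common subunit, differed by 0.09 and Slc16a1, the lactate transporter MCT1, by -0.11. Slc16a3, which encodes the hypoxia-inducible lactate exporter MCT4, read between 3.87 and 4.25 and passed the filter value on 1 array.

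Pyruvate dehydrogenase kinases switch off pyruvate dehydrogenase, which acts on pyruvate inside mitochondria. Pdk1, a HIF-1 target of the family, read 9.64, 9.80, 9.25, 9.73 and 9.37 in controls and 9.65, 9.30, 9.86, 9.70 and 9.56 in arsenic. The groups overlapped, the difference was 0.06 with an interval from -0.24 to 0.35, and its kept probe sets ran from -0.16 to 0.11. Pdk3 read 8.15, 8.27, 8.11, 8.60 and 8.56 in controls and 8.59, 8.86, 8.61, 8.35 and 8.73 in arsenic. As for Pgk1, controls 4 and 5 lay among the arsenic animals. The difference of Pdk3 was 0.29 with a standard error of 0.13 and an adjusted p of 0.301. Pdk2 differed by 0.28 with a standard error of 0.14 and an adjusted p of 0.359, and by 0.16 without control 1.

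**Figure D2:**
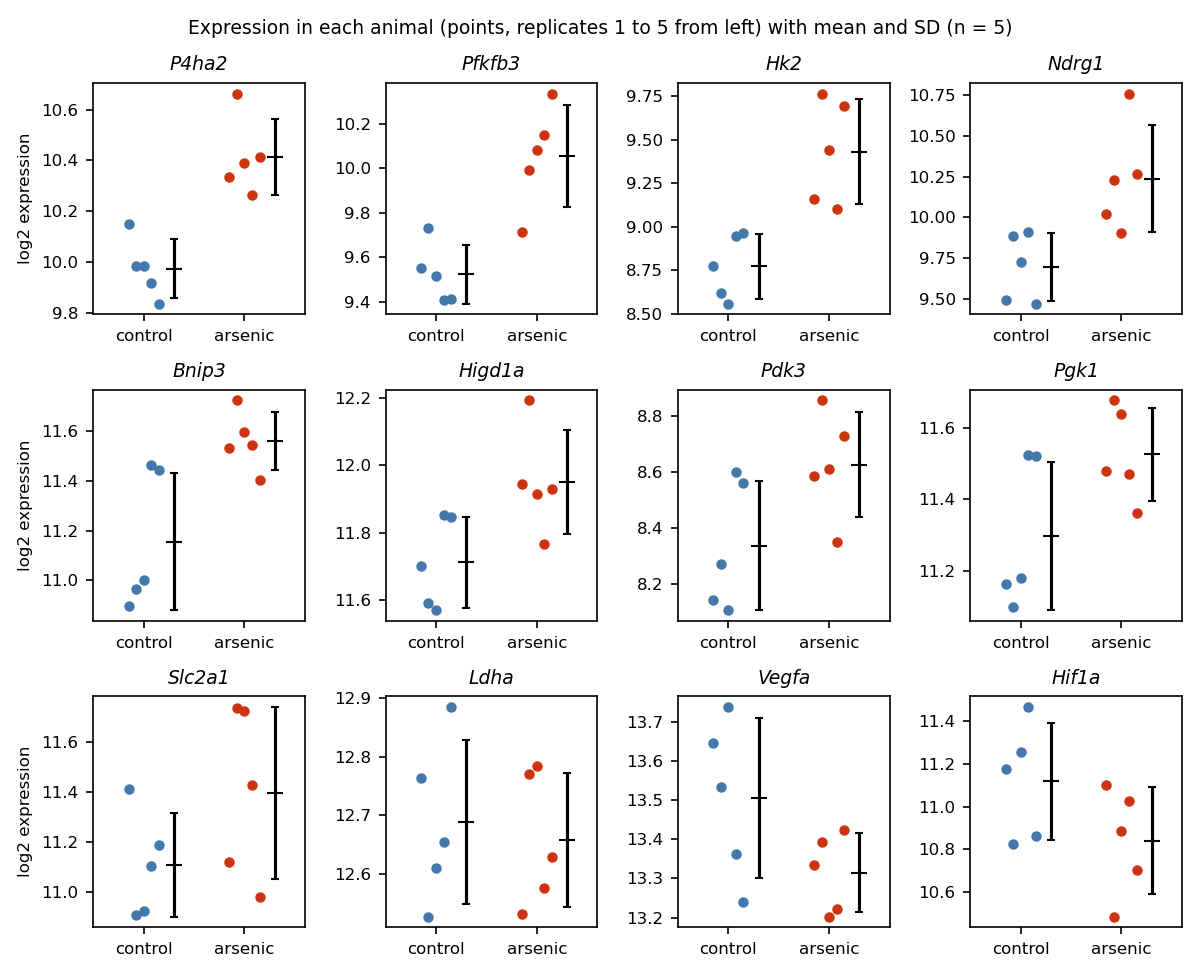
Expression of 12 members in each animal (vertical axes, log2 units; each panel has its own range, which does not start at 0), with the mean and SD of the 5 animals beside the points. In the panels of Hk2 and P4ha2 the groups do not overlap, and in those of Bnip3, Higd1a, Pdk3 and Pgk1 the last 2 control points lie at the level of the arsenic animals.

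Of the remaining hypoxia-induced members, all 6 that were tested differed by a positive amount, beside 63.2% of all genes tested. Of the 6, 4 had an unadjusted p under 0.05, beside 10.6% of all genes that were higher at that threshold. P4ha2, a catalytic subunit of the prolyl hydroxylase that stabilises collagen, had the smallest p of any member. It read 10.15, 9.99, 9.98, 9.92 and 9.83 in controls and 10.34, 10.66, 10.39, 10.27 and 10.41 in arsenic. Every arsenic animal lay above every control. The mean was 9.97 ± 0.12 (SD, n = 5) against 10.41 ± 0.15 (SD, n = 5), a 1.36-fold difference, 0.44 log2 units with a 95% interval from 0.24 to 0.64 and an adjusted p of 0.0855. P4ha1, the other catalytic subunit gene in the set, differed by 0.02 with an interval from -0.20 to 0.24, and its other kept probe set gave 0.24.

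Ndrg1, a stress-responsive gene induced by hypoxia and by loss of iron, read 9.49, 9.89, 9.73, 9.91 and 9.47 in controls and 10.02, 10.23, 9.91, 10.76 and 10.27 in arsenic. Arsenic 3 lay just below control 4, and the other 4 arsenic animals exceeded all controls, arsenic 4 by the most. The adjusted p was 0.184 with a 95% interval of the difference from 0.19 to 0.89. The difference, 0.54, was 0.28 with an unadjusted p of 0.0914 in limma when the level of kidney markers was a covariate, and 0.36 without control 1 and arsenic 4. Its 4 kept probe sets gave 0.47 to 0.58, and in 2 of them the groups did not overlap.

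Bnip3, a mitochondrial protein that marks the organelle for mitophagy, read 10.90, 10.97, 11.00, 11.46 and 11.45 in controls and 11.53, 11.73, 11.60, 11.54 and 11.40 in arsenic. Controls 4 and 5 lay above arsenic 5. The adjusted p was 0.205 with a 95% interval from 0.12 to 0.69. Higd1a, a mitochondrial inner membrane protein induced by hypoxia, read 11.70, 11.59, 11.57, 11.85 and 11.85 in controls and 11.94, 12.19, 11.92, 11.77 and 11.93 in arsenic. Arsenic 4 lay below controls 4 and 5, and the difference was 0.24 with a standard error of 0.10 and an adjusted p of 0.280. The other kept probe sets of Higd1a gave 0.30 and 0.10. Ankrd37 differed by 0.37 with a standard error of 0.23, and 1 animal, arsenic 2 at 6.74, stood above the rest of its group. Without arsenic 2 the difference of Ankrd37 was 0.14. Car9, which encodes the carbonic anhydrase at the surface of hypoxic tumour cells, read 2.85, 2.67, 2.66, 2.72 and 2.75 in controls and 2.70, 2.69, 2.82, 2.66 and 2.76 in arsenic, all below the filter.

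**Figure D3:**
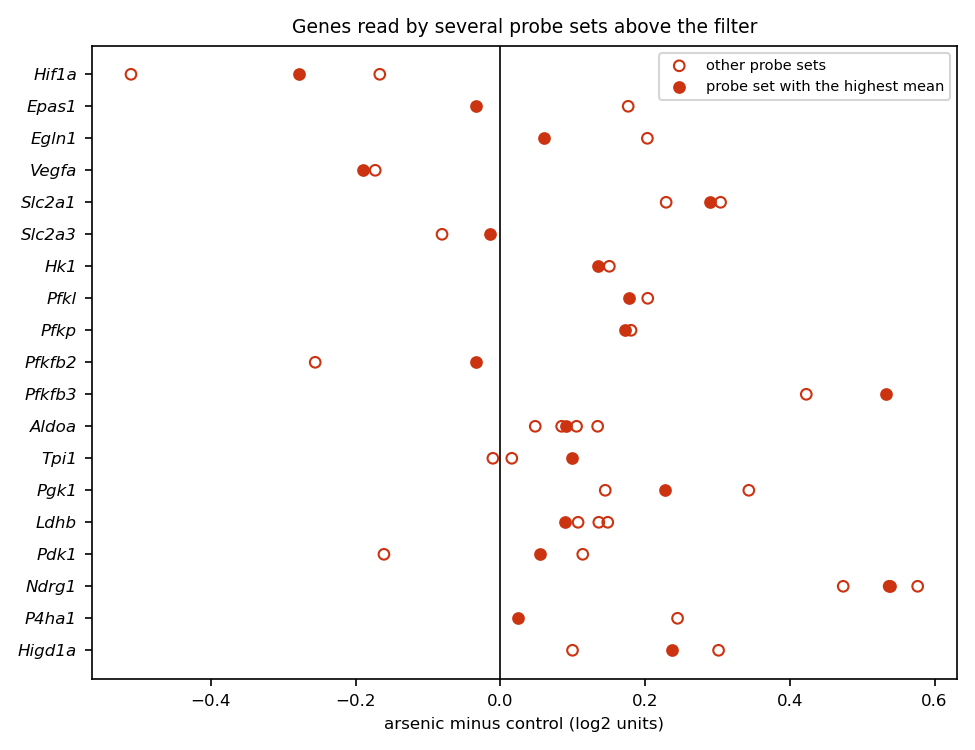
Difference between arsenic and control means (horizontal axis, log2 units) for the 19 members read by several kept probe sets; filled points are the set with the highest mean, open points the others. The sets share a sign in 16 members and are opposed in Epas1, Pdk1 and Tpi1.

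Probe sets of 1 gene share the animals and the RNA but read other stretches of the transcript. Of the 65 member probe sets above the filter, 14 (21.5%) had an unadjusted p under 0.05, beside 16.2% of all 19490 probe sets tested. None of them passed the adjusted threshold, which 0.390% of all probe sets passed. P4ha2, Hk2, Bnip3 and Pdk3 were each read by a single kept set, so their values have no further set beside them.

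The animals did not contribute equally. Arsenic 2 was the highest of the 10 animals in 18 of 33 members, 54.5%, beside 23.4% of all genes tested. Its median deviation from the control mean was 0.25 over the members, against 0.06 to 0.20 in the other arsenic animals. The lowest animal was a control in 27 members, 81.8%, beside 60.3% of all genes. Without arsenic 2, no member passed the adjusted threshold in limma and 5 members had an unadjusted p under 0.05, beside 9.95% of all genes.

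**Figure D4:**
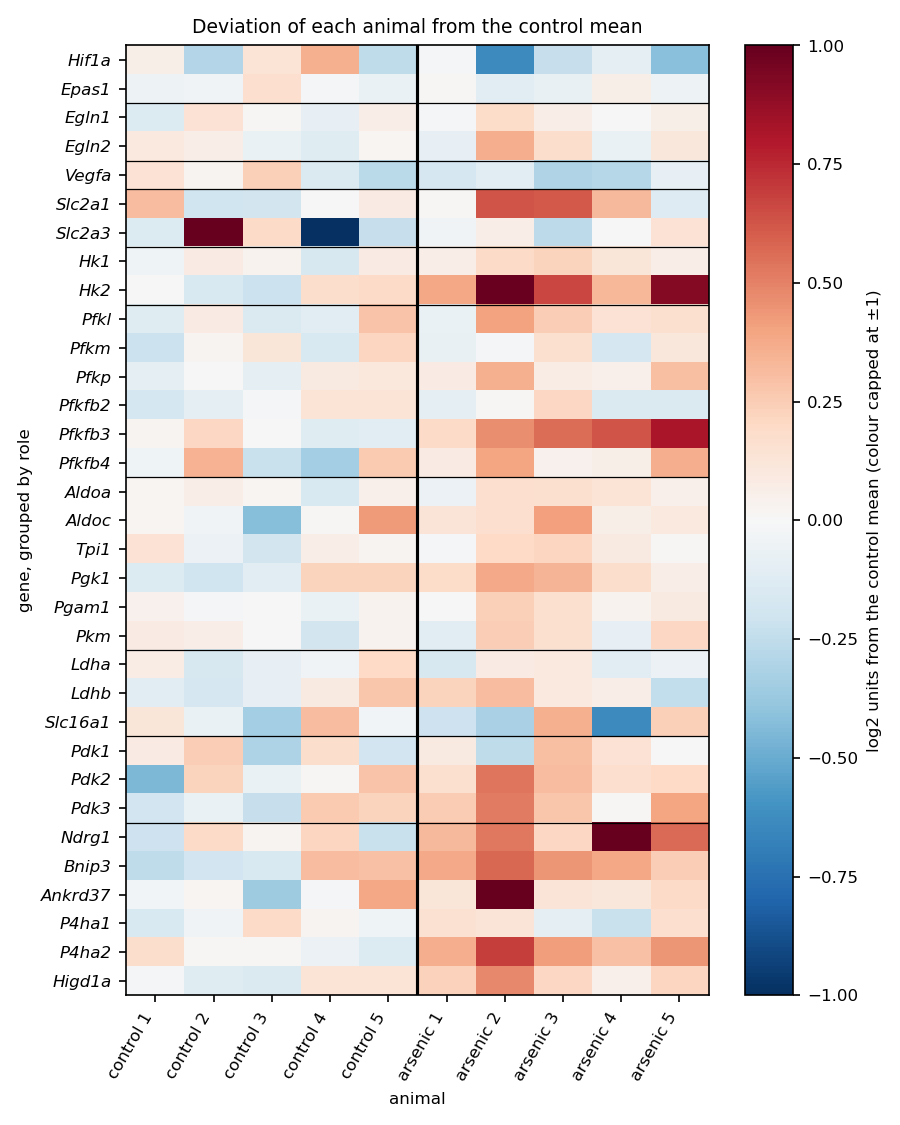
Deviation of each animal (columns) from the control mean for the 33 tested genes (rows, grouped by role), in log2 units with the colour capped at 1 unit in either direction. Arsenic 2 and arsenic 3 have the most positive columns, with median deviations of 0.25 and 0.20.

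Transcripts of other tissues differed between the lungs and were measured beside the members. Of 14 kidney markers, 8 lay above the filter, all with a positive difference. Among them Slc22a12 had a mean of 3.99 in controls, below the filter value, and of 5.08 in arsenic. It may thus have passed the filter through the arsenic group, which favours a positive sign. The mean level of the 8 markers ran from 5.08 to 7.72 in controls and from 7.04 to 8.83 in arsenic. Slc12a1, Slc12a3, Slc22a6, Slc22a8, Aqp2 and Pvalb, the rest of the list, lay below the filter. When that level entered the fit as a covariate, the difference of P4ha2 was 0.54, that of Hk2 0.77 and that of Pfkfb3 0.57, while that of Ndrg1 was 0.28 and that of Bnip3 0.29. Only control 4 had a kidney level within the arsenic range, so this level and the exposure cannot be fully told apart in that fit. The standard error of Hk2 was 0.18 in it, against 0.15 without the covariate. No gene passed the adjusted threshold in that fit. In limma, 4 of 33 members had an unadjusted p under 0.05, beside 22.1% of all genes. Hif1a then differed by -0.43 with an unadjusted p of 0.0388 in limma.

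**Figure D5:**
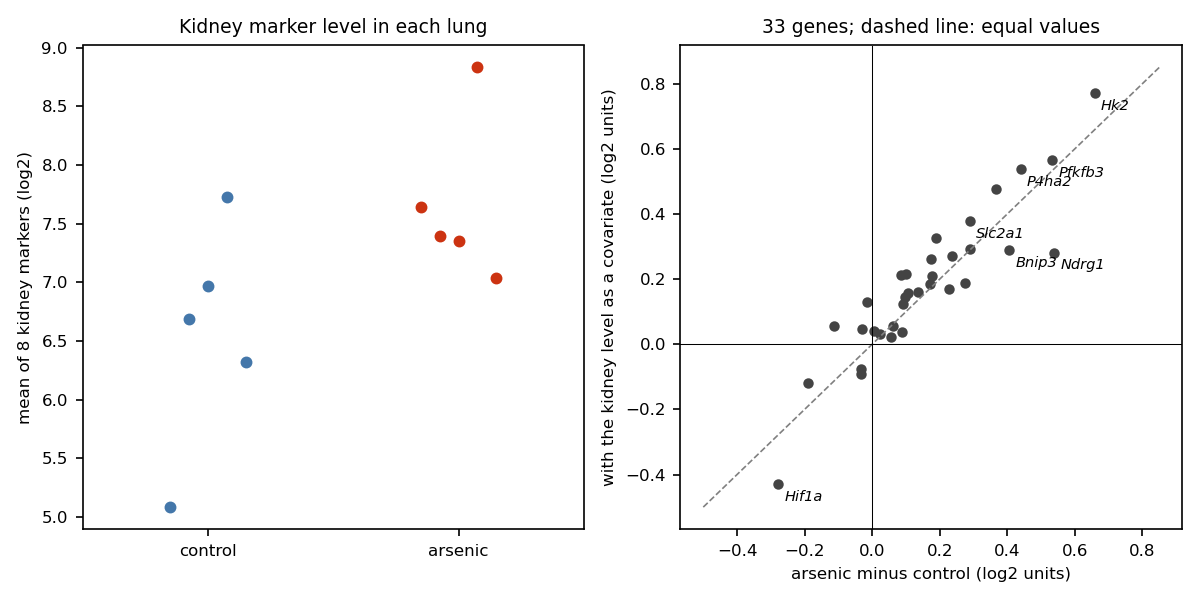
Left, mean level of 8 kidney markers in each lung (log2 units). Right, the difference of each of the 33 members without (horizontal) and with (vertical) that level as a covariate; Ndrg1 drops from 0.54 to 0.28 and Hk2 lies above the line of equal values at 0.77.

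Cardiac and adipocyte marker levels varied widely between animals within both groups. The 8 cardiac markers tested had negative differences, with a mean level of 7.74 to 10.52 in controls and 7.07 to 10.74 in arsenic, and the adipocyte level ran from 6.87 to 9.34 and from 7.03 to 10.30. Alveolar macrophage markers lay between 10.001 and 10.53 in controls and 10.22 and 10.59 in arsenic, with 7 of 9 positive and a median difference of 0.20. Of these, Marco differed by 0.36 and Chil3 by 0.26, both with an unadjusted p under 0.05. With the macrophage level as a covariate, 5 of 33 members had an unadjusted p under 0.05 in limma, beside 9.66% of all genes, and Pdk3 differed by 0.15 and Pdk2 by 0.15. Of 9 erythroid markers, 2 were tested, both with a positive difference and a median of 0.33, and Slc4a1 differed by 0.48. Their part in the members' values was not tested. The fibroblast markers, of which 9 of 10 were negative, had a median difference of -0.23, and their part in the value of P4ha2 was not tested. The surfactant-producing type 2 cell markers, a check of the tissue label, were high in every animal, between 14.34 and 14.56 on average. The 3′ minus 5′ value of the beta-actin control sets, a measure of RNA degradation, was 0.58 to 0.65 in controls and 0.50 to 0.70 in arsenic.

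Other genes of the pathway that are no members were read in the same fit. Of 13 tested HIF regulators and partners, such as Vhl and Arnt, none passed the adjusted threshold in either direction, and the median difference was 0.02. Siah2, a ubiquitin ligase that degrades the HIF hydroxylases, had the smallest p with a difference of -0.48, and with the mean of its kept probe sets it differed by -0.19. Os9 differed by 0.16, Hif1an, the asparaginyl hydroxylase of HIF, by 0.13 and the coactivator Ep300 by -0.11. Of 31 other hypoxia-induced genes, 21 differed by a positive amount and 10 by a negative one, beside 63.2% positive of all genes. Their median difference was 0.11. At an unadjusted p under 0.05 in limma 7 were higher and 1 lower, beside 10.6% and 5.13% of all genes. Only 1 passed the adjusted threshold and was higher, as 0.379% of all genes were. This was Adm, the vasodilator peptide adrenomedullin, with 7.57 ± 0.25 (SD, n = 5) in controls and 8.36 ± 0.14 (SD, n = 5) in arsenic and an adjusted p of 0.0260. Adm missed the threshold in 13 of 28 alternatives, among them the fit without the filter (adjusted p 0.0564), the replicate block (0.0621) and the kidney covariate (0.120), over a range of 0.0129 to 0.158. Among the rest, Angptl4, an inhibitor of lipoprotein lipase, had a difference of 1.33, groups that did not overlap and an adjusted p of 0.0888. Plod1, which hydroxylates collagen lysines, differed by 0.47, and Wsb1 by -0.49.

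The neighbouring routes of glucose carbon held no gene past the adjusted threshold. Other genes of glucose entry and glycolysis had a median difference of 0.04 over 18 tested, with Ldhd at 0.58, Slc2a10 at 0.43, Slc16a7 at 0.39 and Hkdc1 at 0.31. Genes of pyruvate dehydrogenase and of pyruvate entry into mitochondria had a median of 0.06 over 10. Dlat, the acetyltransferase of pyruvate dehydrogenase, differed by 0.24 with groups that did not overlap. With the mean of its kept probe sets, Dlat differed by 0.16. Pdk4, a kinase of the same complex, differed by 0.75 with a standard error of 0.32 and by 0.44 with the kidney covariate, the phosphatase subunit Pdp1 by -0.51 and Pdhx by 0.17. All 5 tested genes of gluconeogenesis had a positive difference, beside 63.2% of all genes, and a median of 0.14. Among them Fbp1 differed by 1.97 with a standard error of 0.91 and Pck1 by 0.59 with one of 0.65, both of them transcripts that are abundant in kidney. With the kidney covariate, Fbp1 differed by -0.08 and Pck1 by -0.32, and without control 1 the difference of Fbp1 was 1.08. Pck2 and Slc37a4 differed by 0.13 and 0.14. The 7 tested genes of the pentose phosphate pathway had a median of 0.05, with H6pd at 0.14, Rpia at 0.06, and Pgd and Pgls both at 0.05.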

How the data were processed

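Lung RNA from 5 control and 5 arsenic mice was extracted with Trizol and cleaned on Qiagen columns, per the labels' protocols. The authors deposited a table of log2 values with 45101 probe sets and 10 arrays. Its scale was read from the range, 0.62 to 16.32. The submitters' processing notes name GCRMA, whose version was not given in the sources used here. GCRMA can compress the values of dim probe sets, which was not tested here.

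A probe set was kept if it exceeded the table's median, 4.198, on at least 5 arrays. Among kept sets with 1 gene symbol, control sets left out, that with the highest mean over all arrays stood for its gene. The contrast was fitted in R 4.3.3 with limma 3.58.1 (lmFit, eBayes), with Benjamini-Hochberg adjustment over all 11332 genes and a threshold of 0.05. The procedure was tested on simulated data with independent noise of each gene's own spread and 50 changed genes per size. It called 0 of 50 at 0.25 log2 units, 21 at 0.5, 40 at 1 and 50 at 2. Of 11132 unchanged genes it called 7. Most changes of 0.5 or less would thus be missed at the threshold. The arrays correlated with each other at 0.990 to 0.997.

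The members, the pathway and marker lists and the tests were chosen with earlier results of these data known. Values per animal are given for members with an unadjusted p under 0.05 or groups that do not overlap, and for 13 genes whatever their values. Of each pathway list, genes past the threshold and, to at most 4, those with the smallest p are named. RefSeq promoters (GRCm38.p6) are printed for the 6 members of smallest p, except Ndrg1. All 38 members with an annotated symbol had the same symbol in RefSeq.

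Alternatives were other filters, probe set rules, normalizations, variance models, array weights, a replicate block and leaving out each array. Covariates for marker lists and beta-actin, and leaving out 2 arrays at once, were chosen after seeing the data. Same-numbered animals were not paired: their correlations ran from -0.33 to 0.25, and 0 of 10 animals correlated best with its own number. Figures were drawn with matplotlib 3.10.9.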

Additional observations from a re-analysis of the deposited data

Results flagged for a closer look

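In 122 checks of a gene within a group of 5 animals, 5 had 1 animal far from the other 4, of which 3 were in members. Chance gives such a gap in about 1 of 20 groups. Ankrd37 read 6.74 in arsenic 2, and the next animal of that group read 5.66. Epas1 read 15.24 in control 3, above 15.06 in the next control. Aldoa read 13.21 in control 4, below 13.38 in the next control. Outside the members, Adm read 8.12 in arsenic 1, below 8.37 in the next arsenic animal. Pck1 read 8.63 in control 4, above 6.36 in the next control.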

How the results depend on the processing

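The median difference of the members lay between 0.09 and 0.17 in all 29 alternatives, and it stayed positive. The median of all genes was also positive except with no filter, where it was -0.010 and 45.4% of all genes were positive. Elsewhere it ran from 0.032 with the macrophage covariate to 0.12 after centring, where 73.9% of all genes were positive. The count of members past the threshold, 0, was unchanged in 27 alternatives. It was 3 with the beta-actin 3′ minus 5′ value as a covariate (Hk2 adjusted p 0.0456, Pfkfb3 0.0383 and P4ha2 0.0439), and 0 to 1 when 1 array was left out, the 1 being Pfkfb3 without arsenic 1. The highest adjusted p in limma over the alternatives was 0.316 for Hk2, 0.265 for Pfkfb3 and 0.275 for P4ha2. Across alternatives, 4 to 12 members had an unadjusted p under 0.05, while the share of all genes at that threshold ran from 9.66% to 22.1%.

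Of all genes tested, 54 passed the threshold. The count was 19 with no filter, 5 with the replicate block, 0 with the kidney covariate, 13 with the alveolar macrophage covariate, 140 with the beta-actin covariate, 4 without control 1 and arsenic 4, 1 without control 2 and arsenic 5, and 9 to 41 when 1 array was left out. With the replicate block no member passed, as without it. The causes of these changes were not tested. Centring arrays on their median moved the median difference of all genes from 0.06 to 0.12.

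Several members, and outside the members Fbp1, Pck1 and Pgls, changed sign. Epas1 was 0.071 with the mean of kept probe sets, 0.18 with the most variable set and 0.029 after centring. Pdk1 was -0.16 with the most variable set. Slc2a3 was 0.048 after centring and 0.13, 0.043, 0.057 and 0.038 with the kidney, adipocyte, macrophage and beta-actin covariates, and 0.25 without control 2 and arsenic 5. Pfkfb2 was 0.029 after centring and 0.019 with array weights. Ldha was 0.033 after centring, 0.046 with the kidney covariate and 0.0094 without control 1 and arsenic 4. Slc16a1 was 0.055 with the kidney covariate and 0.047 without control 1 and arsenic 4. Pfkm was -0.0012 with the cardiac covariate, -0.048 with the macrophage covariate, -0.0042 without control 1 and arsenic 4, and -0.014 without control 2 and arsenic 5. P4ha1 was -0.035 with the macrophage covariate and -0.020 without control 2 and arsenic 5. Fbp1 was -0.083 and Pck1 -0.32 with the kidney covariate.

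When 1 array was left out, the ranges were -0.047 to 0.061 for Pfkm, -0.013 to 0.086 for P4ha1, -0.28 to 0.29 for Slc2a3 and -0.057 to 0.0073 for Epas1. They were -0.023 to 0.13 for Pdk1, -0.095 to 0.00047 for Pfkfb2, -0.071 to 0.019 for Ldha and -0.23 to 0.017 for Slc16a1. Outside the members, the range of Pgls was -0.018 to 0.098.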

Other observations

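Controls 4 and 5 shared high values of several mitochondrial and glycolytic members. Both read above all of controls 1 to 3 in 8 of 33 tested members, 24.2%, beside 14.3% of all genes tested. These members were Ldhb, Higd1a, Pgk1, Bnip3, Pfkp, Hk2, Pdk3 and Pfkfb2. The pair was singled out after its values were seen. In Bnip3, which marks mitochondria for mitophagy, the lowest of the pair was 11.45 and the highest of the other controls 11.00.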
